A study of Sus scrofa with 4 samples.

Results

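Vascular stem cells isolated from the longissimus dorsi muscle of pigs (IVSC) were compared before and after adipogenic induction (IVSC-MDI), with 1 small RNA library for each state. The members are all features with a read in either library. They number 13593 of the 17793 features read in the series, and comprise 205 pig miRNA hairpins (188 miRNAs), 570 Ensembl non-coding transcripts, 449 piRNA entries and 12369 Rfam entries. The other 2 libraries of the series, SVSC and SVSC-MDI, come from subcutaneous fat and were used only to set the values of the muscle culture beside those of a second culture. All cells were primary cells at passage 1, grown in 20% serum and induced after they had reached confluence. The MDI medium held 0.5 mM IBMX, 0.25 µM dexamethasone and 5 mg/l insulin. The first 2 agents were removed after 3 days, growth medium came back on day 6, and the cells were kept for another 3 or 4 days. The sources used here do not give which of these times applies to the IVSC-MDI library. The undifferentiated cells carry no MDI agent, and the labels describe no genotype or transgene. The labels state no breed, age or number of animals, and they enter an adipose-derived cell type for the muscle samples too.

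A miRNA is cut from a hairpin-shaped precursor, and usually 1 arm of the hairpin, the mature miRNA, is kept while the other arm is degraded. Imprecise cutting and later trimming give mature reads whose ends differ from the listed sequence. IBMX raises cAMP, dexamethasone activates the glucocorticoid receptor, and insulin drives lipid storage. Together they start the C/EBP and PPARG program of adipocyte differentiation, which several miRNAs support or restrain. Small RNA libraries also hold fragments of tRNA, rRNA, small nucleolar RNA (snoRNA) and Y RNA.

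The IVSC library held 21590587 reads over all features and IVSC-MDI 20739428, of which 13252168 and 14810112 were miRNA reads once the copies of a hairpin were counted once. Levels of miRNAs are given in CPM (counts scaled to the library's miRNA reads). A fold is followed by its exact 95% interval, which covers counting error only. For sums of Rfam entries, given further below, it is too narrow, as a read can count in several entries. A miRNA was called higher or lower in IVSC-MDI when its level differed at least 2-fold with an interval that excluded 1, among those at 10 CPM or more in 1 of the libraries. With 1 library in each group these calls compare libraries, and there is no replicate check and no p-value. The SVSC-MDI library stands apart by its depth of 2573249 miRNA reads and by the 38.5% of its reads on Ensembl transcripts, against 13.99% to 19.3% in the others. These shares count a read in each entry it matches.

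Of 152 miRNAs compared, 25 (16.4%) were higher and 36 (23.7%) were lower in IVSC-MDI, 40.1% in all. The median log2 ratio was -0.04 and 64 miRNAs lay within 1.5-fold. In total 11.4% of the miRNA reads changed place between miRNAs. The miRNAs called lower took 16.5% of the reads in IVSC and 7.43% in IVSC-MDI. Most of that loss was in miR-378, which lies in an intron of the gene of the coactivator PGC-1 beta and took 13.1% and 6.42%. Its log2 ratio of -1.03 lay just past the 2-fold limit, and on mature reads (-0.96) it was not called. The miRNAs called higher took 0.767% and 2.31%. Calls were more frequent among scarce miRNAs: 47.1% of the 51 miRNAs between 10 and 100 CPM were called, 42.6% of 54 between 100 and 1000 CPM, 31.7% of 41 between 1000 and 10000 CPM, and only miR-378 of the 6 above that. The 5 most abundant others, miR-143, miR-21, miR-148a, let-7f and let-7a, had log2 ratios of 0.15, 0.18, -0.55, 0.21 and -0.11.

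**Figure D1:**
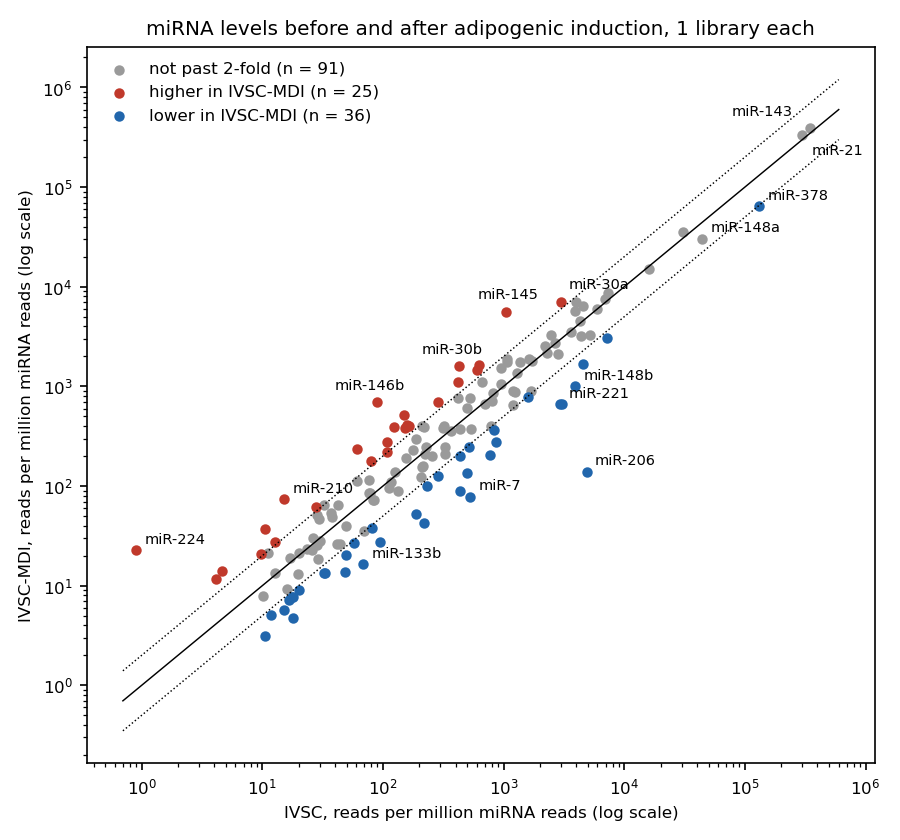
Level of each of the 152 compared miRNAs in IVSC (horizontal) and IVSC-MDI (vertical), in CPM of miRNA reads on log scales, 1 library each. The solid line marks equal levels and the dotted lines 2-fold. The 25 miRNAs called higher and the 36 called lower are spread over the whole range below miR-378.

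The scaling decides part of these calls. Scaled to all reads of the library instead, every log2 ratio is 0.22 higher than given here. The counts then turn to 32 higher and 21 lower of 144 compared. Scaled to miRNA reads without miR-143 and miR-21 every log2 ratio is 0.36 higher, with 38 higher and 17 lower of 153. Across miRNA reads, all reads, TMM factors, DESeq2 size factors and the total without miR-143 and miR-21, 22 miRNAs were called higher and 16 lower under every scaling. Of the miRNAs named below as called, miR-378, miR-152, miR-15b, miR-20a, miR-320, miR-130a, miR-214, miR-455, miR-136, miR-421, miR-106a and miR-122 passed under some of these scalings only.

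The muscle miRNA miR-206, which is made in skeletal muscle and its precursors, showed the largest fall. Its level was 4874 CPM in IVSC and 139.6 CPM in IVSC-MDI, 34.9-fold lower (33.4 to 36.5). In the fat-derived culture it was close to absent, at 2.79 CPM in SVSC and 1.55 CPM in SVSC-MDI. miR-133b, whose hairpin neighbours that of miR-206, had 68.8 and 16.5 CPM in the muscle culture, 4.18-fold lower (3.62 to 4.83), and 1.34 and 16.3 CPM in the fat culture. The other skeletal muscle miRNAs did not pass 2-fold: miR-1 had 1242 and 881.7 CPM, miR-133a 78.2 and 85.5 CPM and miR-499 12.8 and 13.3 CPM. miR-486 stayed under 10 CPM and miR-208b was not among the miRNAs read. Lower calls thus numbered 2 of the 5 muscle miRNAs compared (40%), against 23.7% over all miRNAs, and none was called higher. With 5 compared members this count does not set the list apart. In bulk libraries such as these, fewer cells of a type and less RNA per cell cannot be told apart.

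At 100 CPM or more the next largest fall was that of miR-7, from 526.6 to 78.5 CPM, 6.71-fold (6.30 to 7.14), and from 377.4 to 155.8 CPM in the fat culture. miR-503, of the miR-15/16 group that restrains the cell cycle, went from 218.8 to 42.6 CPM, 5.14-fold lower (4.71 to 5.61). Among the 15 largest falls, miR-127, miR-299, miR-381 and miR-411 were 3.79-fold, 3.56-fold, 4.59-fold and 4.89-fold lower. They are known from the imprinted DLK1-DIO3 locus, whose other miRNAs were not tallied here. On mature reads their log2 ratios were -1.85, -0.07, 0.26 and -1.50. In the fat culture these 4 were not called, with log2 ratios of -0.57, -0.93, -0.44 and -0.66. Their levels before induction were 53.0, 29.6, 268.5 and 28.9 CPM there, against 771.2, 187.1, 3051 and 437.3 CPM in IVSC. miR-148b and miR-152, of the same family as the abundant miR-148a, went from 3911 to 1002 CPM and from 7192 to 3065 CPM, 3.90-fold (3.83 to 3.98) and 2.35-fold (2.32 to 2.37) lower. Both were lower in the fat culture as well, with log2 ratios of -2.19 and -1.27. miR-744 was 3.70-fold lower and miR-15b 2.31-fold lower, and in the fat culture their log2 ratios were -1.42 and 0.51.

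Among the rises, miR-146b, a miRNA induced by NF-kappaB signalling and reported to promote adipogenesis, went from 88.6 to 693.7 CPM, 7.83-fold (7.37 to 8.33). Its level in the fat culture was 33.3 and 107.6 CPM. miR-145, a regulator of the smooth muscle phenotype, went from 1058 to 5605 CPM, 5.30-fold (5.21 to 5.40), and from 894.8 to 7440 CPM in the fat culture. miR-193a, a member of a family linked to brown fat, went from 61.5 to 234.6 CPM (3.81-fold, 3.53 to 4.12). miR-34a, a target of p53, went from 149.4 to 511.5 CPM (3.42-fold, 3.26 to 3.60), and its relative miR-34c from 159.7 to 409.5 CPM (2.56-fold, 2.44 to 2.70). These relatives parted in the fat culture, where miR-34a had 191.7 and 865.1 CPM and miR-34c 312.0 and 166.3 CPM. Below 100 CPM, miR-224 had the largest ratio, on 12 and 340 reads (25.4-fold, 14.3 to 49.6), and miR-210, the miRNA of the hypoxia response, had 15.2 and 73.8 CPM (4.84-fold, 4.16 to 5.65).

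**Figure D2:**
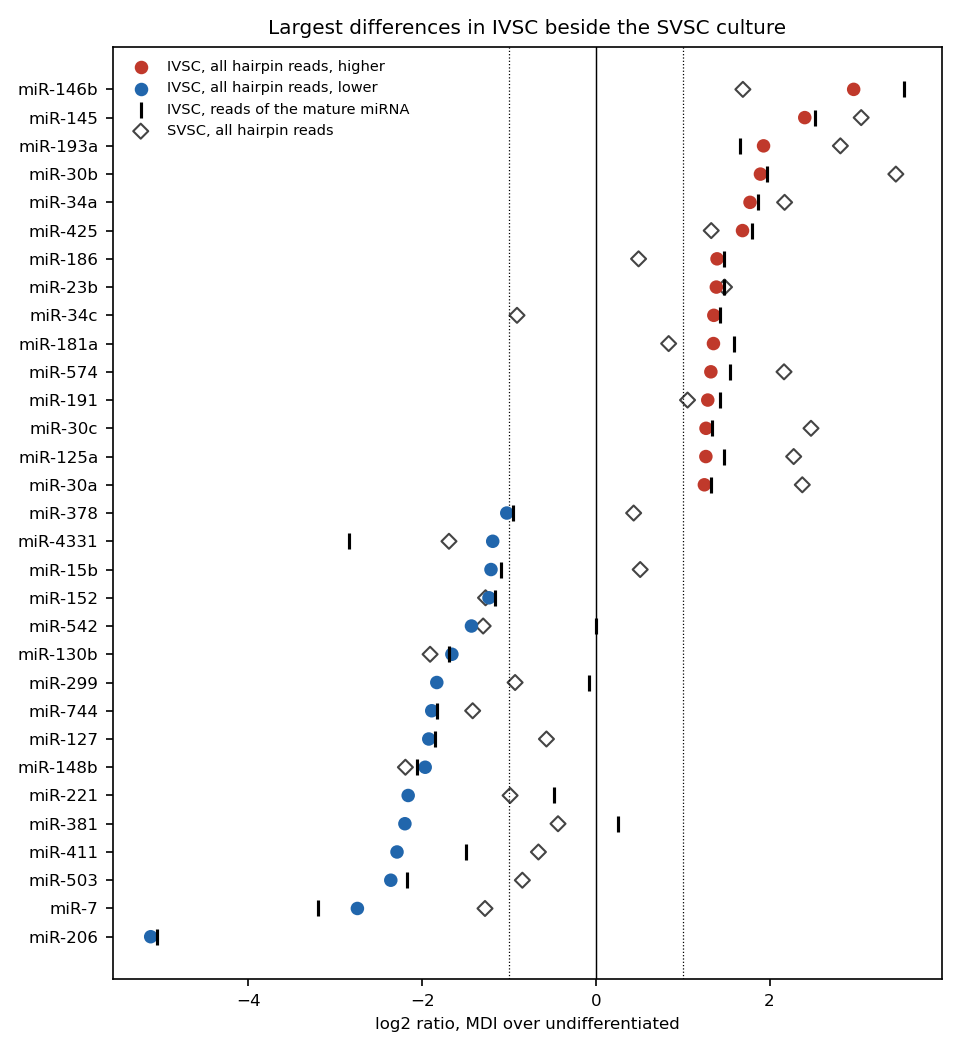
log2 ratios of the 15 largest rises and 15 largest falls at 100 CPM or more, with miR-378 added as one of the most abundant miRNAs. Filled points are all hairpin reads in IVSC, ticks the reads of the mature miRNA in IVSC, and open diamonds the fat-derived culture, left out where it was under 10 CPM in both libraries (miR-206). Among the falls, the ticks of miR-221, miR-381, miR-299 and miR-542 lie near 0.

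miRNAs reported to promote adipogenesis moved both ways. Of the 20 on that list 17 were compared, with 5 higher (miR-146b, miR-210, miR-30a, miR-30b, miR-30c), 3 lower (miR-20a, miR-320, miR-378) and a median log2 ratio of 0.12, against 16.4% higher, 23.7% lower and a median of -0.04 over all compared miRNAs. The miR-30 family, which represses RUNX2 and so favours fat over bone fate, split into 3 members called higher and 2 not called. miR-30a had 2973 and 7071 CPM, miR-30b 427.7 and 1591 CPM and miR-30c 286.7 and 691.0 CPM, while miR-30d had 4570 and 6484 CPM and miR-30e 6996 and 7592 CPM. The same 3 were called higher in the fat culture, with log2 ratios of 2.38, 3.45 and 2.48, and miR-30d and miR-30e had -1.26 and -0.45. Of the 20 miRNAs reported to inhibit adipogenesis 17 were compared, with 3 higher (miR-145, miR-224, miR-125a), 3 lower (miR-130a, miR-130b, miR-221) and a median of 0.02. miR-130a and miR-130b, which repress PPARG, had 433.4 and 202.6 CPM and 865.7 and 274.5 CPM. let-7a, let-7c, let-7e, let-7f, miR-27a, miR-27b, miR-155 and miR-222 did not pass 2-fold.

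Markers of other cell types were counted next, against 16.4% higher and 23.7% lower over all 152 miRNAs. With at most 5 compared members in a list, these counts set no list apart. Of the 5 perivascular and mesenchymal miRNAs miR-145 was higher and miR-214 lower (519.4 and 245.7 CPM), and the 5 summed to 359421 and 401780 CPM. The endothelial miR-126 had 134.1 and 89.6 CPM. Of 5 blood miRNAs only miR-142 was compared, at 28.4 and 25.9 CPM, and miR-451 had 6.49 and 6.41 CPM. Of 7 epithelial miRNAs only miR-205 was read, with 2 and 5 reads. The neuronal miR-9 was higher, at 12.7 and 27.8 CPM, and miR-128 was not called, at 37.7 and 48.8 CPM. The liver miRNA miR-122 was lower, at 10.5 and 3.11 CPM. Of the 3 compared miRNAs of the fat list miR-193a and miR-455 were higher and miR-365 was not called, at 526.9 and 759.8 CPM. Their part in the differences between the libraries was not tested.

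The deposited counts split each hairpin into the mature miRNA, the star strand and the rest of the hairpin. A star strand is listed for few hairpins, so for most of them the reads of the opposite arm fall in the rest. The rest held 37.8% of the miRNA reads in IVSC and 40.6% in IVSC-MDI, most of it on miR-143, and without miR-143 it held 4.29% and 3.05%. Scaled to the sum of mature reads, 31 of 137 miRNAs (22.6%) were higher and 23 (16.8%) lower, 39.4% in all, and scaled to all reads 31 were higher and 14 lower. Of the 25 higher and 36 lower calls on all hairpin reads, 23 and 22 were called the same way on mature reads. On the rest of the hairpin 13 of 104 (12.5%) were higher and 21 (20.2%) lower, 32.7% in all. For 81 miRNAs both kinds of reads reached 10 CPM. On the common scale of miRNA reads 14 of them were called the same way on both, 16 on mature reads only, 10 on the rest only and 41 on neither, and no miRNA was called in opposite ways. In 31 of the 81 the log2 ratios of the rest and of the mature reads had opposite signs. The ratio of the rest was the lower in 55 of the 81, and over all 81 the median of rest minus mature was -0.27.

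The fall of miR-221, which promotes proliferation by repressing inhibitors of the cell cycle, lay almost wholly on the rest of its hairpin. That part had 30523 reads in IVSC and 3206 in IVSC-MDI, a log2 ratio of -3.41. The mature part had 8639 and 6583 reads, a log2 ratio of -0.55 on the same scale, which did not pass 2-fold. Its share of reads on the rest of the hairpin thus went from 77.9% to 32.8%, and in the fat culture from 63.4% to 32.7%. miR-299 and miR-542 had the same shape, with 150 and 152 mature reads against 2330 and 627 on the rest, and with 572 and 611 against 59955 and 24462. The listed mature arm of miR-381 had only 11 and 14 reads. In miR-15a the total was not called, while the rest had 5253 and 2597 reads and the mature part 1919 and 2899. miR-7 and miR-148b showed the reverse. Their mature reads went from 6435 to 748 and from 50130 to 12792, whereas the rest went from 543 to 415 and from 1698 to 2048.

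The share of reads on the rest of the hairpin was compared after these counts were seen. A shift was an odds ratio of at least 2 whose exact interval excluded 1, among hairpins with 100 reads in both libraries. Of 147 hairpins, 16 (10.9%) shifted to a higher share and 29 (19.7%) to a lower share, 30.6% in all, and the median share was 7.92% and 6.74%. Shares rose in miR-7 from 7.78% to 35.7%, in miR-214 from 7.87% to 26.5%, in miR-148b from 3.28% to 13.8% and in miR-130b from 2.13% to 8.54%. The fat culture showed the same direction in these 4, with 8.07% and 29.7%, 8.16% and 25.6%, 5.18% and 9.71%, and 1.79% and 11.8%. Shares fell in miR-497 from 21.6% to 4.35%, in miR-9 from 29.2% to 7.30%, in miR-125a from 11.5% to 2.74%, in miR-125b from 15.4% to 5.71% and in miR-15a from 73.2% to 47.3%. In miR-1307, miR-362 and miR-664 the rest of the hairpin went from under to over 50% of the reads, and in miR-136, miR-15a and miR-221 from over to under 50%. For most hairpins the counts do not say which arm these reads came from.

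Reads that match the listed mature miRNA exactly, with neither end changed, made up 50.2% of the mature reads in IVSC and 49.5% in IVSC-MDI. These sums hide a change in miR-21. Of the mature reads of miR-21, an abundant miRNA of proliferating cells, 734972 of 3902324 were exact in IVSC and 1678631 of 4949407 in IVSC-MDI, a share of 18.8% and 33.9%. Its odds ratio was 2.21 (2.20 to 2.22), and in the fat culture the share went from 14.1% to 50.3%. Without miR-21 the exact share of all mature reads was 79.1% and 70.2%. Of 118 hairpins with 100 mature reads in both libraries, 9 (7.63%) shifted to a higher exact share and 17 (14.4%) to a lower one, 22% in all. The median share was 52.6% and 50.4%.

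By odds ratio the largest gain was that of miR-107, from 3.69% to 13.1%, on only 17 and 40 exact reads. miR-499 gained from 28.3% to 52.6%, miR-425 from 9.73% to 21.0%, miR-20a from 1.39% to 3.14% and miR-500 from 1.81% to 4.04%. The largest losses were in miR-362 (8.81% to 1.23%), miR-140 (1.37% to 0.241%), miR-146b (53.7% to 20.0%), miR-19a (80.3% to 50.9%) and miR-342 (26.7% to 8.73%). miR-146b thus combined the largest rise above 100 CPM with a loss of exact reads, from 169 of 315 mature reads to 787 of 3940. miR-19a and miR-19b, which differ little in sequence and come from the miR-17-92 cluster, moved together: miR-19b went from 76.9% of 10193 to 49.9% of 5528 mature reads. The fat culture had the same direction, from 71.5% to 51.6% and from 83.2% to 48.4%. The miR-30 family again divided, as miR-30a gained (1.81% to 3.85%) while miR-30e lost exact reads (17.7% to 7.84%).

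**Figure D3:**
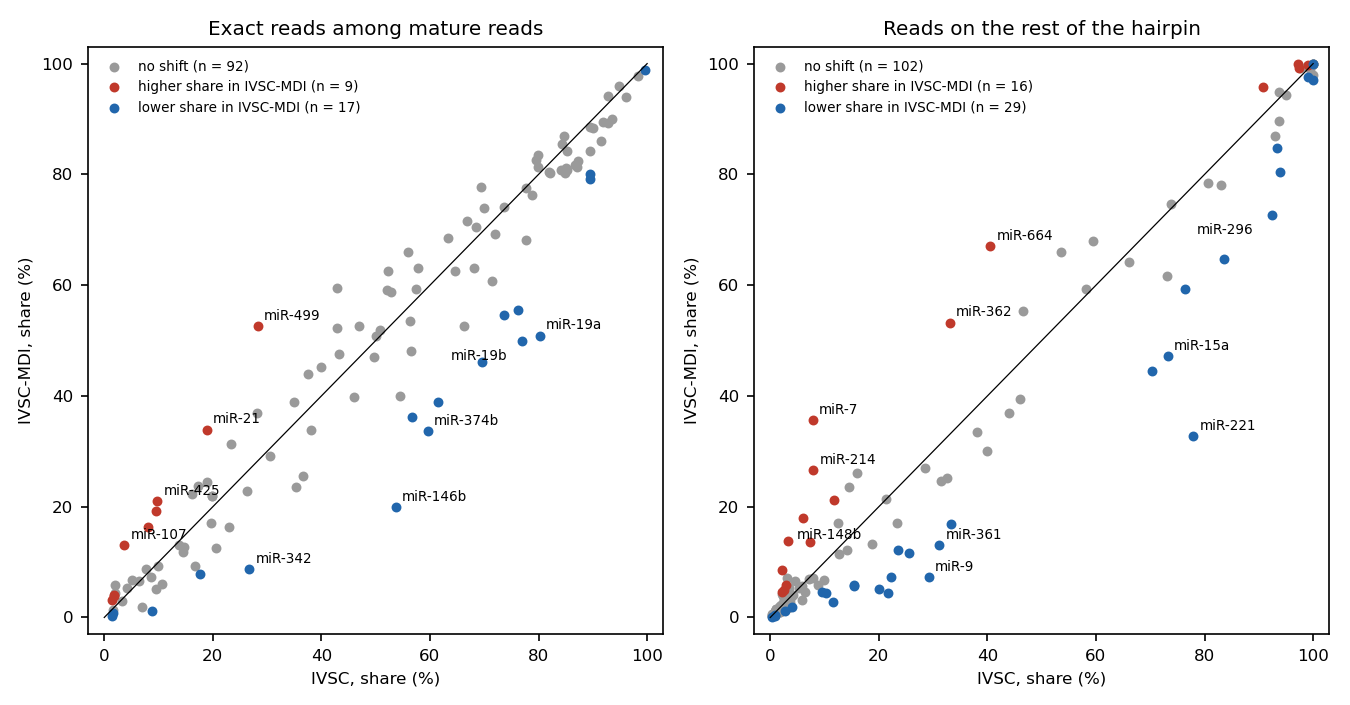
Share of exact reads among mature reads (left, 118 hairpins) and of reads on the rest of the hairpin (right, 147 hairpins), in IVSC (horizontal) and IVSC-MDI (vertical), in percent, 1 library each. Points on the line kept their share, and coloured points shifted by an odds ratio of at least 2. miR-221 stands apart at 77.9% and 32.8% on the right, and miR-146b at 53.7% and 20.0% on the left.

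The star strand, the arm that is usually degraded, had counts for few hairpins. Of 9 compared star strands miR-376a was called higher (11.1%), on 46 and 159 reads, a ratio of 3.09 (2.22 to 4.39). None of the 8 star shares with enough reads shifted by an odds ratio of 2. In miR-140, miR-199a, miR-199b and miR-374a the star strand held most of the reads of both arms in both libraries. It took 91.9% and 87.6% in miR-140, a miRNA of cartilage, and 71.1% and 60.6% in miR-199a. In miR-374a it took 65.3% and 53.3%, and in miR-199b 80.1% and 81.2%.

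Hairpins that lie close together are often cut from a shared transcript, so their levels were set side by side. Of the 205 hairpins 174 were found in the gene table of the Sscrofa11.1 assembly, and those within 10 kb of each other formed 26 neighbour groups, 24 of them with at least 2 compared miRNAs. Copies of a hairpin in different groups share 1 value. In 13 groups every compared miRNA had a log2 ratio above 0 and in 10 every one was below 0, but scaled to all reads 14 lay above and 5 below, and without miR-143 and miR-21 14 and 3. No group held calls in both directions, but most groups held at most 1 call and so could not show this. miR-181a and miR-181b form 2 of the groups, with the same values. Within groups the values still differed, by a median range of 0.99 on the log2 scale, and by over 1 in 12 of the 24. In 3 groups all compared members were called one way: miR-206 with miR-133b (lower), miR-127 with miR-136 (lower) and miR-425 with miR-191 (higher, log2 ratios of 1.69 and 1.29).

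Neighbours often parted in size. miR-143 and miR-145, cut from the same smooth muscle transcript, had log2 ratios of 0.15 and 2.41. miR-30b was at 1.90 and its neighbour miR-30d at 0.50, and miR-30c at 1.27 with miR-30e at 0.12. miR-23b, miR-27b and miR-24 lay at 1.39, 0.82 and 0.19, and miR-125a, let-7e and miR-99b between 0.07 and 1.27. Of the 6 miRNAs of the growth-promoting miR-17-92 cluster only miR-20a was called lower, against 23.7% over all miRNAs, within a range of -1.03 to -0.08. miR-19b lay just outside the 2-fold limit at -0.999. The related cluster on the X chromosome ranged from -1.83 in miR-363 to -0.08 in miR-92a, and miR-106a (-1.18) was called lower too. miR-221 and miR-222 had -2.16 and -0.35. miR-542 had -1.43 while the 3 miR-450 members beside it were not called. miR-421 and miR-374b, at -1.29 and 0.31, were the only neighbours of opposite sign under scaling to miRNA reads.

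**Figure D4:**
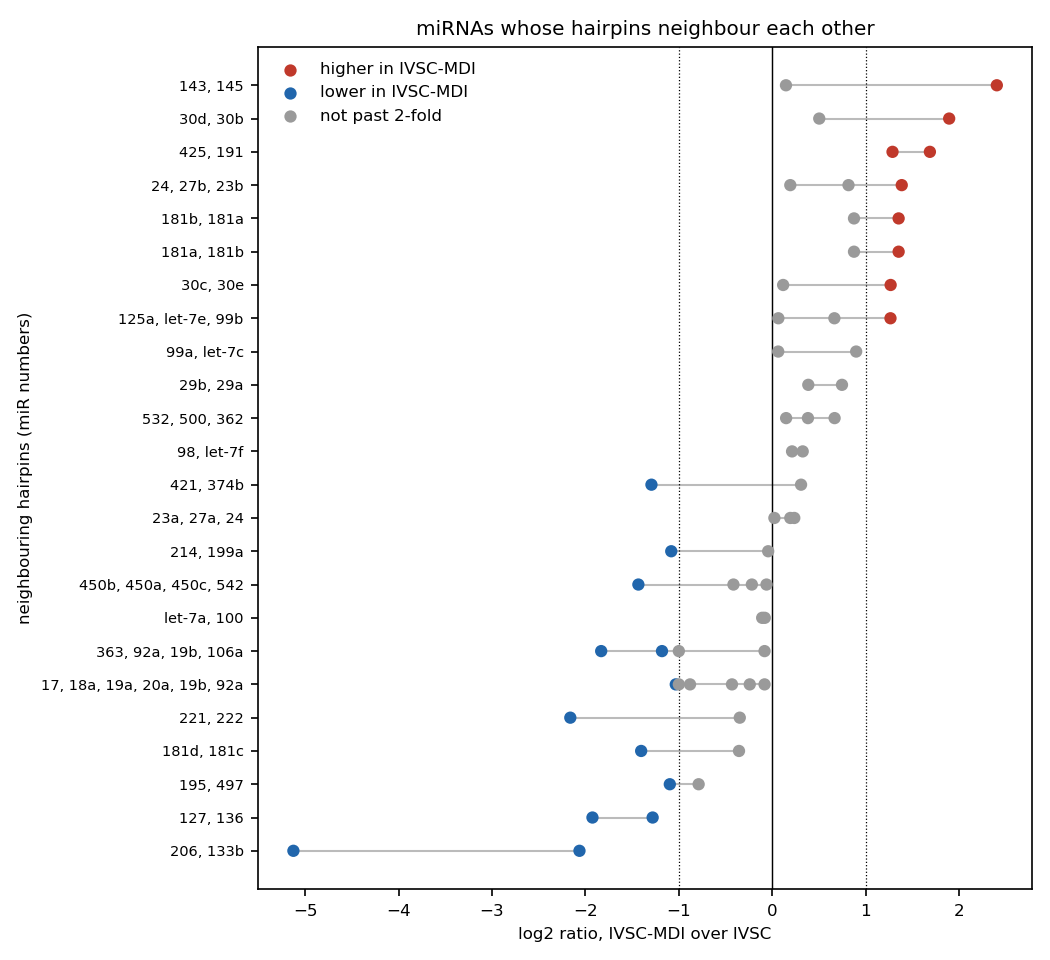
log2 ratio of IVSC-MDI over IVSC for the compared miRNAs of 24 groups of neighbouring hairpins. Each line is a group, labelled by its miRNA numbers, and its points are the miRNAs, coloured by their call. Red and blue points never share a line, though most lines hold at most 1 coloured point. The members of a group spread by over 1 log2 unit in 12 of the 24.

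Features other than the pig hairpins were scaled to all reads of a library, and CPM has that base from here on. In the fat culture Ensembl transcripts took 15.7% of all reads in SVSC and 38.5% in SVSC-MDI. On this base that rise lowers the fat-culture ratios of the features outside Ensembl. A read that matches several entries is counted in each. The interval of a sum over entries treats these repeats as separate reads, so it is too narrow. By class, 2 of 14 RNA classes (14.3%) were higher in IVSC-MDI and none was lower. Y RNA, a partner of the Ro protein that is cut into fragments in many cells, had 894 and 5151 reads, 41.4 and 248.4 CPM, which is 6.00-fold higher (5.59 to 6.45). 7SK RNA, which holds back the elongation factor P-TEFb, had 114 and 1080 reads, 5.28 and 52.1 CPM, 9.86-fold higher (8.13 to 12.1). Taking entries of nearly equal counts once left 49 and 987 reads, a ratio of 19.7. The 49 is below the 82 uniquely matching IVSC reads given next, so that step dropped separate reads and its ratio is too high. Uniquely matching reads were 59 and 354 for Y RNA and 82 and 824 for 7SK, with log2 ratios of 2.64 and 3.39. The fat culture had 29.2 and 195.5 CPM of Y RNA and 4.12 and 98.3 CPM of 7SK. The classes of tRNA (0.756), rRNA (0.729), H/ACA box snoRNA (0.735), SRP RNA (0.881), spliceosomal snRNA (0.924), C/D box snoRNA (1.30), vault RNA (1.32) and piRNA entries (1.02) stayed within 2-fold, the ratio of IVSC-MDI to IVSC being given in parentheses. Ensembl transcripts took 19.3% and 13.99% of all reads and pig hairpins 70.2% and 77.0%. With entries of nearly equal counts taken once, these shares were 14.4% and 10.2%, and 73.5% and 80.3%.

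Within Rfam, a catalogue of RNA families, entries were summed by family, and 13 of 56 families (23.2%) were higher and 12 (21.4%) lower, 44.6% in all. Of the 30 families other than miRNAs 9 were higher and 7 lower. In 8 of the higher and 5 of the lower families the largest entry and the uniquely matching reads also passed 2-fold the same way. C/D box snoRNAs guide the methylation of rRNA, and their families moved both ways, with 6 higher and 3 lower of 17. SNORD48 had 20 and 254 reads (13.2-fold higher, 8.38 to 22.0), SNORD36 77 and 426 reads (5.76-fold, 4.51 to 7.44), SNORD12 647 and 1682 reads (2.71-fold, 2.47 to 2.97) and SNORD99 1268 and 2834 reads (2.33-fold, 2.18 to 2.49). SNORD24 and SNORD52 were 2.51-fold (2.16 to 2.92) and 2.12-fold (1.95 to 2.30) lower, and SNORD72 had 478 and 55 reads, 8.35-fold lower (6.31 to 11.2). Uniquely matching reads were few in SNORD36, at 8 and 16 (log2 ratio of 1.06), and in SNORD72, at 6 and 3. Those of SNORD72 did not pass 2-fold, with a log2 ratio of -0.94. The 17 C/D families had a median log2 ratio of 0.39 here and of -0.74 in the fat culture, where 2 were higher and 6 lower. The risen Ensembl share of SVSC-MDI lowers the fat-culture values.

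The rRNA families moved down where they were called. 5S rRNA had 1918 and 583 reads, 3.16-fold lower (2.88 to 3.47), and 5.8S rRNA 477 and 92 reads, 4.98-fold lower (3.98 to 6.30). Their log2 ratios in the fat culture were -0.07 and -0.95. The small subunit family was not called on the sum of its entries, at 30581 and 22401 reads, but its measures disagreed. Its largest entry had a log2 ratio of -2.51 and its uniquely matching reads one of -1.82. Single rRNA entries moved both ways, with 38 higher and 13 lower of 55, though 32 of them had no uniquely matching read, so they repeat each other. Of all 343 Rfam entries compared 30% were higher and 27.1% lower, 57.1% in all, and scaled to hairpin reads 100 were higher and 151 lower of 432. The fat culture had 9.14% higher and 55.4% lower of 361 entries, 64.5% in all, on ratios lowered by the Ensembl share of SVSC-MDI. Among tRNA entries 35 of 196 were higher and 69 lower, with log2 ratios from -8.06 to 3.90, and 106 of the 196 had no uniquely matching read. The tRNA family as a whole held 152805 and 110912 reads. Of the remaining families the R2 retrotransposon element had 534 and 55 reads, and a family Rfam lists as lsrR had 8 and 278.

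**Figure D5:**
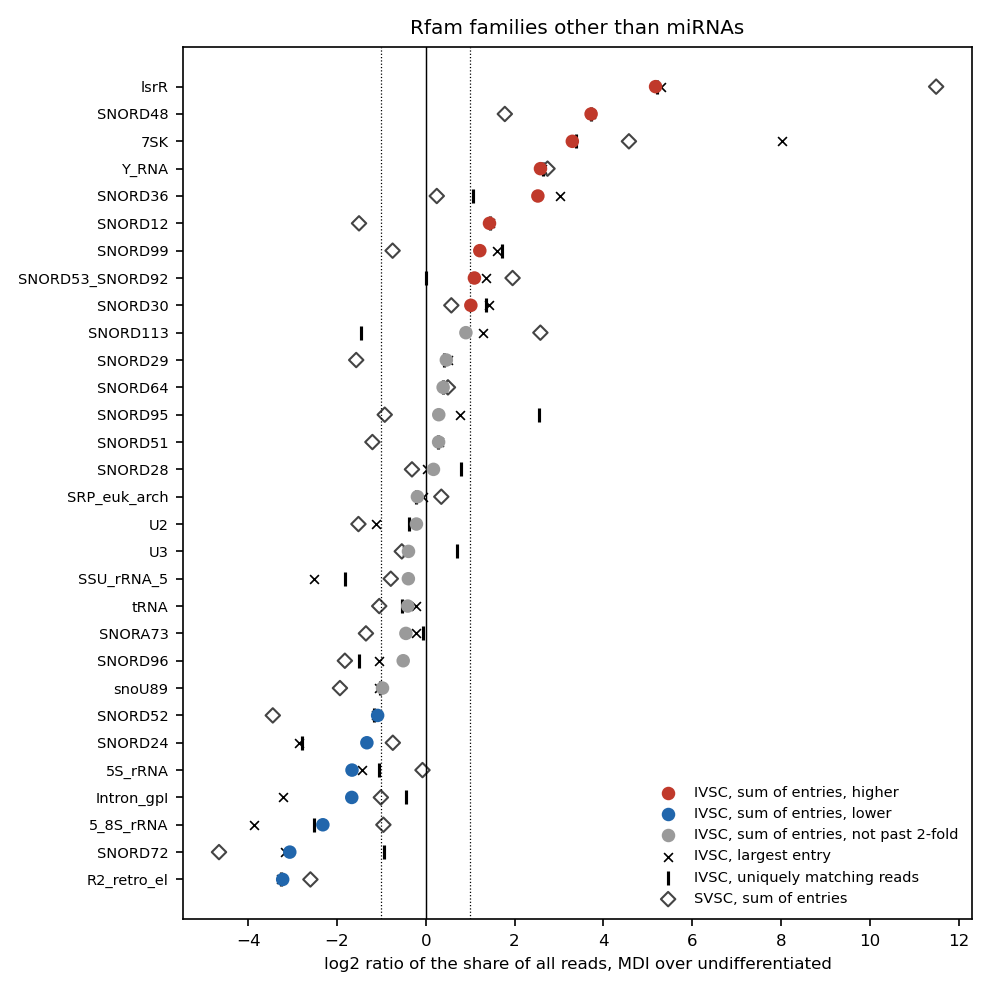
log2 ratio of the share of all reads, MDI over undifferentiated, for 30 Rfam families other than miRNAs. Filled points sum the entries of a family in IVSC, crosses show its largest entry, ticks its uniquely matching reads, and open diamonds the sum in the fat-derived culture. Y RNA and 7SK are to the right in both cultures, and SNORD12 changes side between them.

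Of 144 Ensembl non-coding transcripts compared, 61 (42.4%) were higher and 12 (8.33%) lower, 50.7% in all, and 29 were at least 4-fold higher. Scaled to hairpin reads 55 were higher and 23 lower of 174. A pair of transcripts with nearly the same counts, 1562482 and 1562481 reads in IVSC and 1016711 and 1016704 in IVSC-MDI, held 75.1% and 70.1% of all Ensembl reads. Neither had a uniquely matching read, so the 75.1% and 70.1% count reads that matched more than 1 entry. The ratio of each of the pair was 0.677, whereas in the fat culture it was 3.08. None of the 570 transcript identifiers was paired with a name in the gene tables used here. Among those called at 50 CPM or more in 1 library, ENSSSCT00000020637 and ENSSSCT00000020523 had the largest rises, on 93 and 1480 and on 94 and 1475 reads, and had no uniquely matching read. Above the same limit ENSSSCT00000020593 and ENSSSCT00000020559 had the largest falls, from 9754 to 1631 and from 1226 to 222 reads. Under 50 CPM 3 called transcripts rose by more (log2 ratio up to 6.16) and 1 fell by more (-2.85). ENSSSCT00000020593 went from 686 to 1048 reads in the fat culture, a log2 ratio of 2.93. Of 135 transcripts compared in the fat culture 17% were higher and 34.8% lower, 51.9% in all. The rise of the abundant pair there lowers the ratios of the other transcripts. Called the same way in both cultures were 16 higher and 6 lower transcripts.

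The piRNA entries come from a resource on RNAs of the germline that silence transposons, and here they take 0.503% and 0.515% of all reads. Of 62 compared entries 13 (21.0%) were higher and 16 (25.8%) lower, 46.8% in all, and scaled to hairpin reads 11 were higher and 27 lower of 79. Of those called at 50 CPM or more, PIR84651 rose from 990 to 4854 reads and PIR54081 from 470 to 2094. PIR64386 fell from 6823 to 1221 reads and PIR82944, the most abundant in IVSC, from 13331 to 3111. PIR84651 and PIR64386 had log2 ratios of 1.68 and -2.54 in the fat culture, where 20.5% of 73 entries were higher and 46.6% lower, 67.1% in all. These fat-culture ratios too are lowered by the Ensembl share of SVSC-MDI. For 21 of the 62 no read was unique to the entry. When only uniquely matching reads were counted, fewer entries could be compared, and 15 of 29 were called, against 29 of 62. Whether an entry is a piRNA or a fragment of another RNA was not tested.

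Set beside the muscle culture, the fat culture showed more calls, with 50 (34.2%) higher and 32 (21.9%) lower of 146 miRNAs, 56.2% in all. Of the 25 miRNAs called higher in IVSC-MDI, 23 were compared in the fat culture, and 19 were called higher in SVSC-MDI as well and none lower. Of the 36 called lower, 30 were compared there, of which 15 were lower in both and 2, miR-133b and miR-184, were higher in SVSC-MDI. The others were under 10 CPM in the fat culture and could not be called. Of the abundant miRNAs, miR-378 had log2 ratios of -1.03 and 0.44 and miR-148a -0.55 and 1.38. With 1 library in each state the difference between the cultures was not tested.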

How the data were processed

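The authors deposited for each library a table of read counts per feature, per the file headers, from pig hairpins, Ensembl non-coding RNAs (Sscrofa9.61), piRNAs and Rfam. For hairpins it lists exact mature, mature, star and other reads. Some columns of the SVSC table hold damaged tRNA entries and no deposited count or other value from those cells was used. Entries that gave no resource were left out, 3 in SVSC and 1 in SVSC-MDI. Where an entry had a blank total, its deposited expression value was taken. RNA fragments of 16 to 35 nt were amplified with 12 PCR cycles and read for 36 cycles, per the labels' protocols. The sources used here do not give the aligner, the mismatches allowed or the trimming. A miRNA's reads were those of its largest hairpin copy plus the uniquely matching reads of its other copies. Ratios have Clopper-Pearson intervals (SciPy 1.17.1, pandas 2.3.3), and shares odds ratios from Fisher's conditional estimate (R 4.3.3). PCR copies cannot be told from separate molecules here, so intervals and floors cover counting error only. For sums over Rfam entries the intervals also take repeated counts of a read as separate reads and are too narrow. A count of 0 was set to 3 reads, 0.226 and 0.203 CPM in IVSC and IVSC-MDI. TMM (edgeR 4.0.16) and DESeq2 1.42.0 size factors were alternatives. The steps were tested on simulated data. Named were the 10 most abundant miRNAs, the 15 largest rises and falls at 100 CPM or more, list members, the 5 largest shifts of a share each way and, of unnamed Ensembl and piRNA entries, the 2 largest each way among those called at 50 CPM or more; other miRNAs and families were chosen after their values were seen. Members and lists were chosen with earlier results of these data known.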

Additional observations from a re-analysis of the deposited data

Results flagged for a closer look

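Some features were called in opposite ways in the muscle and the fat-derived culture, a difference that was not tested because each state has 1 library. miR-133b had a log2 ratio of -2.06 in the muscle culture and 3.61 in the fat culture, where it had 24 and 42 reads. miR-184 had -1.91 and 2.29, on 239 and 71 reads in the muscle culture. The SNORD12 family had 1.44 and -1.50, and its uniquely matching reads gave 1.44 and -1.52. Of Ensembl transcripts 7 were higher in the muscle culture and lower in the fat culture, and 1 was the reverse. Of piRNA entries 2 and 1 did so, the 2 with nearly the same counts and no uniquely matching read, and the 1 with 19 and 7 such reads in the muscle culture. The SVSC-MDI library, on which each of these rests, has 2573249 miRNA reads, the fewest of the 4.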

How the results depend on the processing

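No paired analysis was possible because each group has 1 library, and for the same reason no replicate could be left out. Seed families were not run, since no mature sequences were at hand. With 100 CPM as the minimum the calls were 37 for miRNAs, 35 for mature reads, 0 for star strands, 27 for Ensembl transcripts, 4 for Rfam entries and 11 for piRNA entries. With no minimum they were 190, 1192 and 137 for the last 3 kinds. Scaled to the reads of their own resource these had 152, 685 and 140 calls. Uniquely matching reads were tried after seeing the data. They gave 46 calls of 83 Rfam entries compared and 15 of 29 piRNA entries, against 196 of 343 and 29 of 62 as reported. The star call of miR-376a was lost when scaled to all reads (0 calls). Its star reads then lay under the 10 CPM minimum, while its ratio was not smaller. With 30 reads as the minimum its star share counted as 1 shift. With 1000 reads 14 exact and 29 rest-of-hairpin shares shifted, against 26 and 45. Fewer features are compared under a higher minimum. Other counts stayed within 1.5 times. Of 308 alternatives over 54 single results, which are miRNAs and RNA classes, 256 kept the direction and the call, 19 lost the call, 30 moved and 3 reversed. Most of the 30 were ratios of RNA classes. Another was miR-21, which was called higher on exact mature reads, at a log2 ratio of 1.12. The reversals were miR-381 (0.26) and miR-542 (0.00272) on mature reads and miR-299 (1.51) on exact reads, of which it had 3 and 9. At a minimum of 10 CPM depth sets the width of the counting intervals, and a count of 0 allows up to 0.226 and 0.203 CPM in IVSC and IVSC-MDI.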
